A study of Mus musculus with 18 samples.

Results

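Of 53946 genes in the deposited mouse expression table, 38 were at a mean of 5 FPKM or more in the leukemic spleen cells and at a mean below 0.2 FPKM in each of 3 groups of bone marrow progenitors. FPKM scales the fragments counted in a gene by its length and by the total of the library. These 38 genes are described here. Among all genes, 7448 reached 5 FPKM in the leukemic cells. Genes on X and Y, immunoglobulin segments, Itgax, Tlr9 and Dnase1l3 were set aside by the rule, which removed 4 further genes (Dnase1l3, Igkj4, Igkj5 and Igkv9-120). The members were chosen by the FPKM values of the 12 RNA libraries, so their levels in leukemic cells against progenitors are a description and carry no test. By class, 15 members were protein-coding genes, 12 were genes of under 200 bases, such as snoRNA, snRNA and miRNA genes, and 11 were longer non-coding, pseudogene or predicted genes. For 11 of the 38, all with a provisional name, the RefSeq gene table used here gave no position, so it was not checked that they lie outside X and Y.

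The libraries came from mice of strain C57BL/6 in 4 groups of 3. The AML libraries (label NHD13/Setd2 KO - AML) were C-Kit+ cells sorted from the spleen at the leukemia stage, with the Nup98-HoxD13 (NHD13) fusion transgene and Setd2 deleted by Mx1-Cre. The KO libraries (NHD13/Setd2 KO) were hematopoietic stem and progenitor cells (HSPCs) sorted from bone marrow, with the same transgene and deletion. NHD13 libraries (NHD13/Setd2 flox/flox) were bone marrow HSPCs with the transgene and floxed Setd2 alleles, and WT libraries were bone marrow HSPCs of C57BL/6 mice without either. Mx1-Cre is switched on by interferon signalling and acts in blood cells and in other tissues. The sources used here give no ages and no inducing treatment, and do not say whether the floxed controls carried the Cre. Spleen and bone marrow, the sorted population, the leukemia stage and the group label change together between AML and the HSPC groups and cannot be told apart. H3K36me3 ChIP-seq was done on C-Kit+ spleen cells of 1 NHD13/Setd2 KO - AML and 1 NHD13 - AML library, and whole-genome bisulfite sequencing on 1 library for each of the 4 RNA groups.

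The transgene joins a nucleoporin to a homeobox protein, gives mice a myelodysplastic syndrome and predisposes them to acute leukemia. Setd2 is the enzyme that places trimethylation on lysine 36 of histone H3 (H3K36me3) along the bodies of transcribed genes. C-Kit is the stem cell factor receptor, which marks early progenitors and many leukemic blasts. Conventional dendritic cells, which arise from such progenitors, display antigen on MHC class II molecules.

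Each library held 18673704 to 20577958 counts in AML, 20436804 to 28127686 in KO, 22243002 to 24766705 in NHD13 and 22115101 to 23767776 in WT. Kit, the gene of the sorting marker, averaged 29.8 FPKM in AML, 10.6 in KO and 6.73 in NHD13, and stood at 11.7 to 12.5 in WT. Cd34, a further progenitor marker, stood at 37.6 to 38.5 FPKM in AML and averaged 18.8 in KO, 1.41 in NHD13 and 56.7 in WT, so it was low in the libraries labelled NHD13. Setd2 averaged 21.1 FPKM in AML, 2.80 in KO, 2.54 in NHD13 and 4.17 in WT, and a count over the whole gene cannot show the loss of an exon, so the KO label was not checked by it. The AML and KO libraries came from males and the NHD13 and WT libraries from females, going by the female-specific RNA Xist and the Y-linked gene Eif2s3y, so in KO against NHD13 below, sex and the deletion cannot be told apart. Libraries of a group differed by more than sampling noise in every pair, by a chi-square divided by its degrees of freedom, which ran at 1.91 to 2.49 in AML and 3.76 to 27.1 in the HSPC groups. Whether replicate libraries stem from different mice is not said, and p-values measure only the spread between them.

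Together the 38 members took 673 to 698 CPM (counts scaled to one common library total) in the AML libraries, 7.14 to 7.54 in KO, 5.10 to 5.93 in NHD13 and 9.63 to 10.1 in WT. The label "expressed only in leukemic cells" held as a difference of scale but not as absence. Of the 38 members, 32 had a read in at least 1 HSPC library, and 6 had none in all 9. Over the 342 member values in HSPC libraries, 179 were 0. For every member, the lowest AML library stood above the highest HSPC library, by at least 6.18-fold, as the choice of members largely fixes. All 15 protein-coding members exceeded 5 FPKM in each AML library, against 28 of all 38 members. The RNA is bulk RNA of sorted cells, so fewer cells of a type and less RNA per cell cannot be told apart.

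Genes lay close to both limits of the rule. Just inside the AML minimum lay Gm26407 at 5.01, Trpm2 at 5.09 and Mir1950 at 5.14 FPKM, and just outside lay A530099J19Rik at 4.97, Gm22946 at 4.83 and Gm22572 at 4.80 FPKM. Just inside the ceiling lay Gm12551, Ciita and Rap1gap2, whose highest HSPC group means were 0.199, 0.193 and 0.192 FPKM. Just outside it lay Lpo at 0.213, Clip2 at 0.217 and Zfp865 at 0.218 FPKM. With TMM scaling factors in place of library totals, 21 of the 38 genes met the rule.

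**Figure D1:**
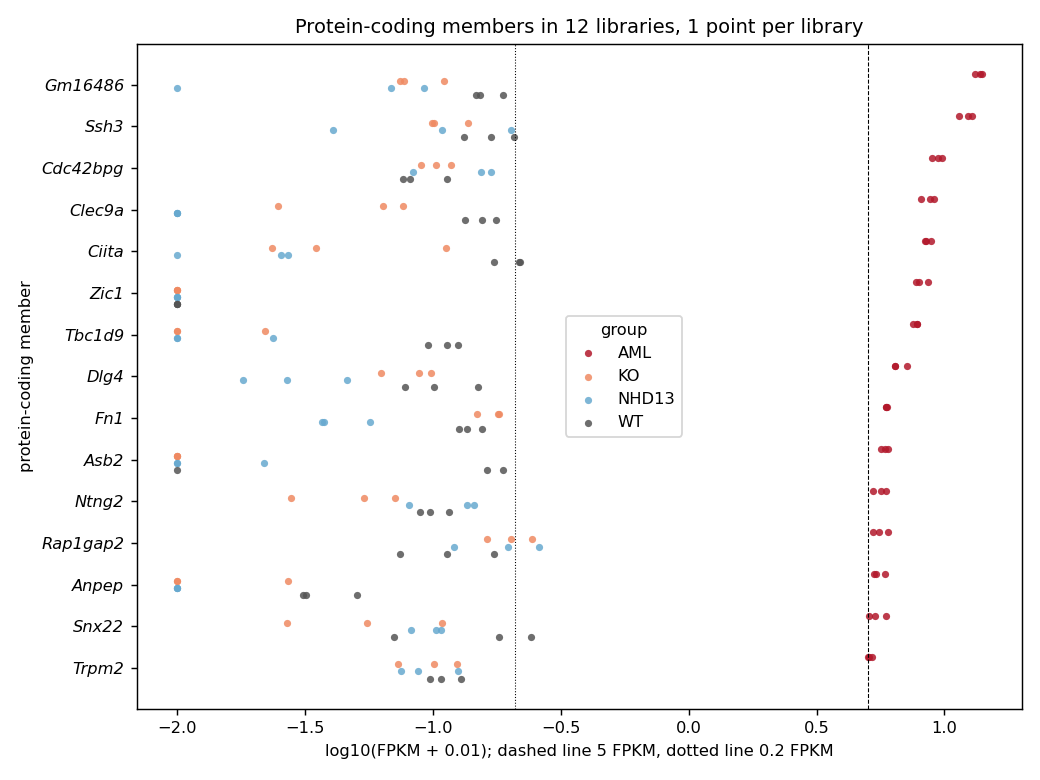
FPKM of the 15 protein-coding members in the 12 libraries, on a log10(FPKM + 0.01) axis, 1 point per library, with AML, KO, NHD13 and WT running downward within each gene. AML points lie at or above 5.04 FPKM for every gene, HSPC points lie at or below 0.251 FPKM, and Zic1 is at 0 in all 9 HSPC libraries.

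The gene with the widest separation was Zic1 (ENSMUSG00000032368, chr9:91358058-91365768, GRCm38.p6, the build mm10), a zinc finger transcription factor of the developing nervous system. It held 848, 945 and 906 reads in the AML libraries, which made 7.98, 8.63 and 7.73 FPKM (mean 8.11 ± 0.461, SD, n = 3), and 0 reads in each of the 9 HSPC libraries. Counted against a floor of 3 reads over a group, Zic1 was at least 1099-fold higher in AML than in KO, at least 1091-fold higher than in NHD13 and at least 1058-fold higher than in WT. The floor corresponds to 0.00738 FPKM in KO, and like the intervals below it covers counting error only. Zic4, a family member whose annotated span overlaps that of Zic1 by 138 bases, is not a member because of its lower level, with 1.58, 1.62 and 1.89 FPKM in AML, 4 reads in 1 KO library and 0 elsewhere.

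The promoters of 4 members are printed because they span the range of CpG content among the members and because methylated regions lie at or beside 3 of them. Each runs from 250 bases before to 50 bases after the annotated start, 5′ to 3′ on the strand of the gene, from RefSeq on GRCm38.p6, with every CpG in capitals. They lie at chr9:91365719-91366018 (minus strand) for Zic1, chr11:74610866-74611165 (minus strand) for Rap1gap2, chr12:103355952-103356251 (minus strand) for Asb2 and chr6:129408612-129408911 (plus strand) for Clec9a.
Zic1: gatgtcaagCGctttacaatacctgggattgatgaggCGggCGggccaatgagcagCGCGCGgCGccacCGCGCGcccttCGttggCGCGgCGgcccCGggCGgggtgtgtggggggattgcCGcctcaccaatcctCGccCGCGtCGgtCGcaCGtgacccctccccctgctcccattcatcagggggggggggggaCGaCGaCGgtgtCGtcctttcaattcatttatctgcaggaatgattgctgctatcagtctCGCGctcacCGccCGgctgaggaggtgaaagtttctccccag
Rap1gap2: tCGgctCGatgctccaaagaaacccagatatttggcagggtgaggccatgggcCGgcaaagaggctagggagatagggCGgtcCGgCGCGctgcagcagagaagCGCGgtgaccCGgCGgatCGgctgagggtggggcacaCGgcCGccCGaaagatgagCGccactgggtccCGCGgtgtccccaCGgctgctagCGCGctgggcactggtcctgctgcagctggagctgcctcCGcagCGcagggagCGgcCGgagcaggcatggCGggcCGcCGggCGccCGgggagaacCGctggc
Asb2: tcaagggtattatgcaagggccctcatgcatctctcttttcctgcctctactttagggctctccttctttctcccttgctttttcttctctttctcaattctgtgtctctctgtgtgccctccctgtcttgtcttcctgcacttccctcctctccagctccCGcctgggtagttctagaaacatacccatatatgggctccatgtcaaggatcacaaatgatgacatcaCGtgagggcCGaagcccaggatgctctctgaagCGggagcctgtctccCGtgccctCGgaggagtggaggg
Clec9a: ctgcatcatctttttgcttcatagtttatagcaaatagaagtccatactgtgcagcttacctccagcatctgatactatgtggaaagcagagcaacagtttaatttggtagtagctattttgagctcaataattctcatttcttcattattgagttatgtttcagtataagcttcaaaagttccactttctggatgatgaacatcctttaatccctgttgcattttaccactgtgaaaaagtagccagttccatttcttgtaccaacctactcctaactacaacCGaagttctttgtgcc
Zic1 and Rap1gap2 each hold 31 CpG, Asb2 holds 6 and Clec9a holds 1.

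2 members belong to antigen capture and presentation. Clec9a (chr6:129408862-129424764) encodes a C-type lectin of cross-presenting dendritic cells that recognises actin exposed on dead cells. It stood at 9.06, 8.81 and 8.07 FPKM in AML, against 0.0149, 0.0540 and 0.0664 in KO, 0 in the 3 NHD13 libraries and 0.166, 0.146 and 0.124 in WT. AML lay above all HSPC libraries, and the HSPC groups themselves did not overlap. Its span lies wholly within the annotated span of Clec12b, which stood at 0.352 FPKM on average in AML, and reads of the pair cannot be told apart without strand. Ciita (chr16:10480014-10531064), the transactivator that switches on MHC class II genes, stood at 8.89, 8.46 and 8.37 FPKM in AML, against 0.102, 0.0135 and 0.0250 in KO, 0.0171, 0 and 0.0154 in NHD13 and 0.208, 0.208 and 0.164 in WT. WT was the highest HSPC group for both genes.

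The genes that Ciita is known to activate were above the ceiling in HSPCs and so are not members. H2-Aa averaged 166 FPKM in AML, 1.55 in KO, 1.94 in NHD13 and 26.0 in WT, and H2-Eb1 averaged 392 FPKM in AML, 1.86 in KO, 1.77 in NHD13 and 22.6 in WT. A list of 40 markers of conventional dendritic cells, which holds Clec9a and Ciita, summed to 2370 to 2415 FPKM in AML libraries, 863 to 925 in KO, 750 to 800 in NHD13 and 1051 to 1106 in WT. Cst3 and Cd24a made up much of the HSPC sums. Cst3 averaged 654 FPKM in AML, 668 in KO, 485 in NHD13 and 649 in WT. Cd24a averaged 104 FPKM in AML, 138 in KO, 197 in NHD13 and 126 in WT. Of the 40, 29 averaged 1 FPKM or more in AML, 15 in KO, 13 in NHD13 and 21 in WT. None was without reads in AML or WT, 2 were in KO and 4 in NHD13. Of the markers that define the cross-presenting type, Xcr1 averaged 3.17 FPKM in AML, 0.443 in KO, 0.277 in NHD13 and 0.905 in WT, and Batf3 averaged 4.56 in AML, 0.0626 in KO, 0.0169 in NHD13 and 0.648 in WT. Not all of the 40 were highest in AML. Flt3 averaged 18.3 FPKM in AML and 21.0 in WT, Esam 0.446 and 4.29, and Cd209a 0.302 and 1.56. Mgl2 averaged 10.4 FPKM in AML and 41.6 in NHD13. How far the number of dendritic cells in the sort set the levels of Clec9a and Ciita was not tested.

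Surface and matrix genes formed another set. Anpep (chr7:79821803-79848210), which encodes the surface aminopeptidase CD13 of myeloid cells, stood at 5.40, 5.84 and 5.30 FPKM in AML, with 2 reads in the KO libraries together, 0 in NHD13 and 8 in WT. Fn1 (chr1:71585473-71653280), the gene of the matrix protein fibronectin, had 1285, 1324 and 1437 reads in AML and stood at 5.89, 5.89 and 5.98 FPKM. Its spread in AML, a coefficient of variation of 0.855%, was the smallest of all members, where counting alone gives 2.72%. In HSPCs it kept 0.160 ± 0.0191 FPKM in KO, 0.0337 ± 0.0111 in NHD13 and 0.129 ± 0.0150 in WT (SD, n = 3 each). AML was 36.6-fold above KO (95% exact counting interval 30.8 to 43.8), 175-fold above NHD13 (121 to 264) and 45.8-fold above WT (37.7 to 56.1).

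Trpm2 (chr10:77907722-77969909), a calcium-permeable channel opened by ADP-ribose, stood at 5.18, 5.06 and 5.04 FPKM in AML and between 0.0628 and 0.119 FPKM in the HSPC libraries. Dlg4 (chr11:70017203-70045535) encodes PSD-95, a scaffold protein best known from synapses, and stood at 7.13, 6.41 and 6.43 FPKM in AML. Ntng2 (chr2:29194726-29248099), the gene of the membrane-anchored protein netrin-G2, stood at 5.66, 5.93 and 5.25 FPKM in AML. Both have most of their described functions in neurons, and both kept reads in all 9 HSPC libraries, 67 in total for each.

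Regulators of small GTPases and of actin made up a further set of 4 genes. Ssh3 (chr19:4261668-4269233), of the slingshot phosphatases that act on cofilin, averaged 12.2 ± 0.698 FPKM in AML, 0.103 ± 0.0217 in KO, 0.107 ± 0.0808 in NHD13 and 0.160 ± 0.0376 in WT (SD, n = 3 each). Cdc42bpg (chr19:6306253-6325653), a kinase that binds the GTPase Cdc42, averaged 9.37 ± 0.461 in AML, 0.0937 ± 0.0137 in KO, 0.126 ± 0.0455 in NHD13 and 0.0806 ± 0.0200 in WT. Rap1gap2 (chr11:74383356-74610915), which turns off the GTPase Rap1, averaged 5.60 ± 0.401 in AML, 0.192 ± 0.0403 in KO, 0.183 ± 0.0701 in NHD13 and 0.111 ± 0.0501 in WT. Its 28.6-fold difference of AML over KO (23.4 to 35.3) was the smallest among the protein-coding members in that comparison. Tbc1d9 (chr8:83165352-83272940) belongs to a family of proteins with a GTPase-activating domain for Rab GTPases. It held 860, 886 and 911 reads in AML, 0, 2 and 0 in KO, 0, 0 and 2 in NHD13 and 12, 14 and 15 in WT. AML was 1622-fold above KO, but with 2 reads in KO the counting interval ran from 449 to 13403.

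Asb2 (chr12:103321142-103356001), a subunit that directs a ubiquitin ligase to filamins, stood at 5.64, 5.85 and 6.01 FPKM in AML. In HSPCs it had no read in KO, 1 in NHD13, and 15, 0 and 12 in the 3 WT libraries, so AML was at least 493-fold above KO. Snx22 (chr9:66065174-66069759), a sorting nexin of endosomal membranes, averaged 5.43 ± 0.412 FPKM in AML and 0.0536 to 0.155 across the HSPC groups, and its span overlaps Ppib by 1456 bases. Gm16486 (chr8:70701321-70717650), listed as Iqcn in RefSeq, was the highest protein-coding member, at 13.7 ± 0.443 FPKM in AML, 0.0772 ± 0.0205 in KO, 0.0470 ± 0.0423 in NHD13 and 0.153 ± 0.0217 in WT (SD, n = 3 each).

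The 11 longer non-coding or predicted genes held 90 to 909 reads each in AML, with a median of 6.11 FPKM, and had 47 reads in KO, 41 in NHD13 and 48 in WT in all. Gm14453 led them at 14.3, 12.1 and 10.7 FPKM in AML, with 2 reads in 1 NHD13 and 2 in 1 WT library. Gm37261 stood at 11.4, 9.30 and 9.89 FPKM in AML, with 3 reads in KO, 2 in NHD13 and 0 in WT. Gm15777 stood at 8.19, 8.78 and 7.93 FPKM in AML, with 4 reads in KO, 0 in NHD13 and 5 in WT, and the pseudogene BC106175 averaged 7.54 FPKM in AML. For none of these genes do the sources used here describe a function. Gm12551, the member nearest the ceiling, shares 5312 bases of its span with Plin2, a lipid droplet gene at 37.7 FPKM in AML and 51.2 in KO, and the counts of the pair are uncertain.

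The 12 genes under 200 bases rested on few reads, 22 to 141 in the 3 AML libraries together. Gm22478 (154 bases) had 51, 39 and 51 reads in AML and 1 read in HSPCs. The snoRNA gene Gm22270 (132 bases), inside the ribosomal protein gene Rpl5, had 41, 30 and 42 reads in AML, 1 in KO, 0 in NHD13 and 1 in WT. Gm26115, of 87 bases, had 25, 30 and 14 reads in AML and none in HSPCs. Gm27702, the shortest at 56 bases, had 9, 9 and 10 reads in AML and none in HSPCs, with a coefficient of variation of 2.01% where counting alone gives 32.7%. One read in a gene of 100 bases was worth 0.486 to 0.536 FPKM in AML and 0.356 to 0.489 FPKM in the HSPC libraries, so at that length a group under the ceiling of 0.2 FPKM could hold 1 read but not 2. Their median coefficient of variation in AML was 26.2%, against 5.25% for the protein-coding members. It was widest for Snord88c (71.4%, with 7, 5 and 20 reads), followed by Gm26403 (59.4%) and Gm26115 (38.3%), where counting alone gives 30.6%, 27.7% and 20.9%.

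3 of these are miRNA genes, and their mature forms are printed from RefSeq (GRCm38.p6) 5′ to 3′ with the seed, bases 2 to 8, in capitals, because the seed sets which targets a miRNA can pair with.
mmu-miR-6999-3p: cUUCAGCUguccuccuuucugu
mmu-miR-6999-5p: aAGGAAGGagagucagcaagcac
mmu-miR-8103: uCUCCUGUucucuguucuccc
mmu-miR-1950: uCUGCAUCuaaggauaugguca
No seed is shared between them. Mir6999 (chr2:91944870-91944930) had 8, 8 and 7 reads in AML and none in HSPCs, Mir8103 (chr11:97063768-97063874) had 15, 15 and 14 in AML, 0 in KO, 1 in NHD13 and 1 in WT, and Mir1950 (chr19:34965396-34965469) had 9, 8 and 5 in AML and none in HSPCs. The labels name a general RNA library kit, not one for small RNA, so these counts do not measure the mature miRNAs.

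All 9 short members with a known position lie inside a larger gene, as do 59.2% of the 3757 placed autosomal genes of under 200 bases. Of the 9 hosts, with Ap1g1 taken for Gm25321, which also lies in the scarcely detected Gm17344, 7 averaged higher in AML than in KO and 2 averaged lower. Dgkz, the host of Mir6999, averaged 66.9 FPKM in AML and 9.33 in KO, and Osbpl7, the host of Mir8103, averaged 9.63 in AML and 1.36 in KO. Of the 2 lower ones, Fbxo7, the host of Gm24430, had 4.77 FPKM in AML and 9.27 in KO, and Orc2, the host of Gm23966, averaged 10.7 in AML and 12.3 in KO. Reads of a short gene and of the transcript around it cannot be told apart in gene-level counts. All snoRNA genes together took 113 to 123 CPM in AML libraries and 29.6 to 59.1 in the HSPC libraries. The snRNA genes, a class with 4 members, took less in AML, with 38.8 to 40.6 CPM against 53.7 to 164 in HSPCs, and ribosomal RNA took 310 to 323 in AML and 1821 to 4325 in HSPCs. The part of such differences in the small members was not tested.

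**Figure D2:**
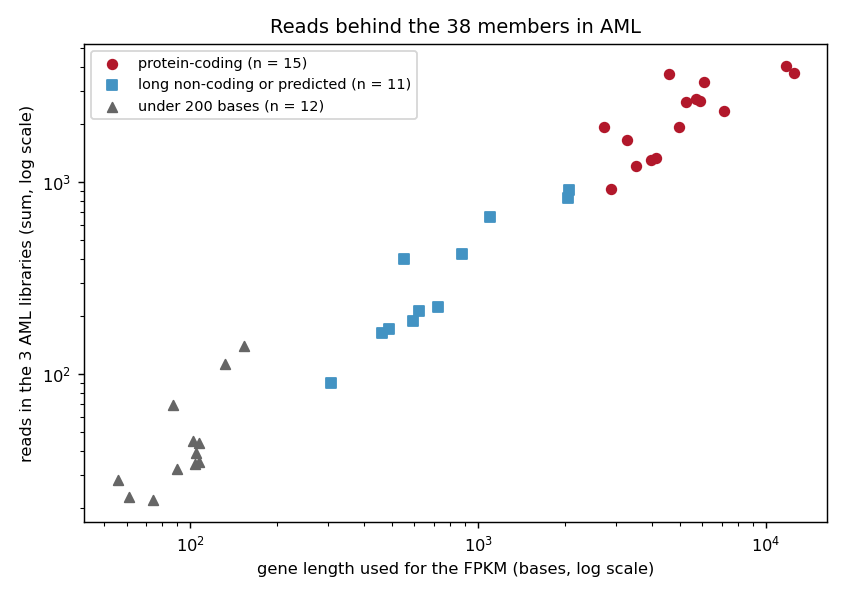
Reads summed over the 3 AML libraries against gene length, both on log scales, for the 38 members by class. The protein-coding members rest on 921 to 4046 reads each and the 12 genes under 200 bases on 22 to 141.

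The progenitor groups were compared among themselves, since the rule capped their means without using the difference between them. The comparison of KO with NHD13 asks what the Setd2 deletion added to the transgene, though the sex of the libraries differs as well. It was tested with edgeR on all 16233 genes that passed a filter on low counts, which 32 of the 38 members passed. Of these, 10 passed the filter on the HSPC libraries alone (Fn1, Ciita, Dlg4, Tbc1d9, Cdc42bpg, Rap1gap2, Gm16486, Ssh3, Trpm2 and Gm43300), and the others passed through their AML reads. For members outside these 10 the reads are given as a description, with no p-value. For the 10, SEs and p-values come from an edgeR fit on the 9 HSPC libraries alone. The AML libraries do not enter their spread. That fit called 2 of the 10, Fn1 and Dlg4, both higher in KO, where 6129 of its 14883 genes were called. The fit on all 12 libraries also called Clec9a higher and Ntng2 lower, 4 calls in 32. It called 40.9% of all genes, 20.6% higher and 20.3% lower. Clec9a and Ntng2 entered it only through their AML reads, so their calls are no support. Neither count is a result about the members as a set.

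Fn1 had 33, 56 and 46 reads in KO, against 7, 13 and 8 in NHD13, a log2 fold change of 2.05 ± 0.31 (SE; edgeR adjusted p = 7.00e-05). Clec9a had 1, 5 and 5 reads in KO, against 0 in all 3 NHD13 libraries, at least 3.64-fold higher against the floor. Dlg4 had 9, 11 and 6 reads in KO, against 4, 2 and 1 in NHD13 (log2 1.65 ± 0.63, adjusted p = 0.0476). Ntng2 had 5, 2 and 4 reads in KO, against 12, 12 and 7 in NHD13. In these 4 genes and Gm15777, 5 of the 32, the KO and NHD13 libraries did not overlap, which held for 49.8% of all genes tested. Ciita, with 11, 2 and 3 reads in KO against 2, 0 and 2 in NHD13, did not pass (adjusted p = 0.140). Nor did Cdc42bpg, with 10, 16 and 15 against 10, 21 and 24 (adjusted p = 0.222). In the fit on all 12 libraries, Dlg4 was called (edgeR adjusted p = 0.0163), but not without replicate 3 of NHD13. The fit on the 9 HSPC libraries did not test Clec9a and Ntng2. A list of 35 stroma and endothelium markers, cells in which Fn1 is abundant, summed to 12.2 to 13.7 FPKM in KO, 8.23 to 8.59 in NHD13 and 47.3 to 50.9 in WT, with 5, 9 and 8 of its genes without reads. A few genes made up much of these sums, such as Krt18 at 28.5 FPKM in WT, and Pecam1 at 5.54 and Pdgfrb at 3.41 in KO. Col1a1, Col3a1 and Dcn averaged 0.0216 FPKM or less in each HSPC group. The part of such cells in the Fn1 difference was not tested.

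The comparison of NHD13 with WT shares the NHD13 libraries with the comparison before it. These groups differ in the transgene and in the floxed Setd2 alleles, which cannot be told apart. Whether the floxed controls carried the Cre is not said. The fit on the 9 HSPC libraries called 6 of the 10 members it tested, 4 lower in NHD13 and 2 higher. It called 8253 of its 14883 genes. The 4 were Fn1, Ciita, Tbc1d9 and Dlg4, and the 2 were Cdc42bpg and Rap1gap2. The fit on all 12 libraries called the same 2 higher and 9 lower of 32 members. It called 54% of all genes, 28.7% lower and 25.3% higher. Its further lower calls were Gm16486, Clec9a, Anpep, Asb2 and Gm15777. Of these, all but Gm16486 entered only through their AML reads, so their calls are no support. Set against those shares, neither count is a result about the members as a set.

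Clec9a had no read in NHD13, against 13, 11 and 9 in WT, at least 11.3-fold lower against the floor. Ciita had 2, 0 and 2 reads in NHD13, against 26, 25 and 19 in WT (log2 -3.67 ± 0.74, edgeR adjusted p = 0.000555). These are the antigen presentation genes. The dendritic cell list given above, which holds both, also had a lower sum in NHD13 than in WT. Cst3, at 485 FPKM in NHD13 and 649 in WT, weighed most in that sum. Some of its markers were higher in NHD13, such as Cd24a, at 197 against 126 FPKM, and Mgl2, at 41.6 against 8.44. The part of dendritic cells in these differences was not tested. Fn1 was lower in NHD13 as well, with 7, 13 and 8 reads against 35, 39 and 30 in WT (log2 -1.53 ± 0.32, adjusted p = 0.000779). So was Dlg4, with 4, 2 and 1 against 8, 16 and 10 (log2 -1.88 ± 0.61, adjusted p = 0.0155). Tbc1d9 with 2 reads in NHD13 and 41 in WT had a ratio of 0.0473 (exact 95% counting interval 0.00555 to 0.182, edgeR adjusted p = 0.00123). For Asb2, 1 read in NHD13 and 27 in WT gave a ratio of 0.0359 (0.000878 to 0.218), although WT replicate 2 had no read. Anpep had no read in NHD13 and 8 in WT, at least 2.75-fold lower. Gm16486 had 6, 9 and 0 reads in NHD13, against 15, 15 and 18 in WT, and did not pass (log2 -1.30 ± 0.61, adjusted p = 0.0816). Gm15777 had none in NHD13, against 0, 3 and 2 in WT, at least 1.72-fold lower. In 7 of the 32 members tested, which are the members of this paragraph without Asb2 and Gm15777, the NHD13 and WT libraries did not overlap, against 56% of all genes tested.

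The progenitor markers Cd34 and Flt3 differed in the same comparison, at 1.41 and 0.138 FPKM in NHD13 against 56.7 and 21.0 in WT, and their part in these differences was not tested.

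The 2 members that were higher in NHD13 had reads in all 9 HSPC libraries. Cdc42bpg had 10, 21 and 24 reads in NHD13, against 15, 10 and 9 in WT (log2 1.03 ± 0.39, edgeR adjusted p = 0.0354). Rap1gap2 had 40, 19 and 33 against 11, 17 and 26 (log2 1.11 ± 0.38, adjusted p = 0.0205). In both genes the NHD13 and WT read counts overlapped. These folds use TMM factors. Over the 12 libraries, such factors raise every fold of NHD13 over WT by 0.40 on the log2 scale against the column totals behind the FPKM. In the fit on all 12 libraries, leaving out replicate 1 of NHD13 ended the call of Rap1gap2. Leaving out replicate 3 of NHD13 or of WT ended that of Gm16486. The fit on the 9 HSPC libraries did not call Gm16486 and did not test Clec9a, Anpep, Asb2 and Gm15777.

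**Figure D3:**
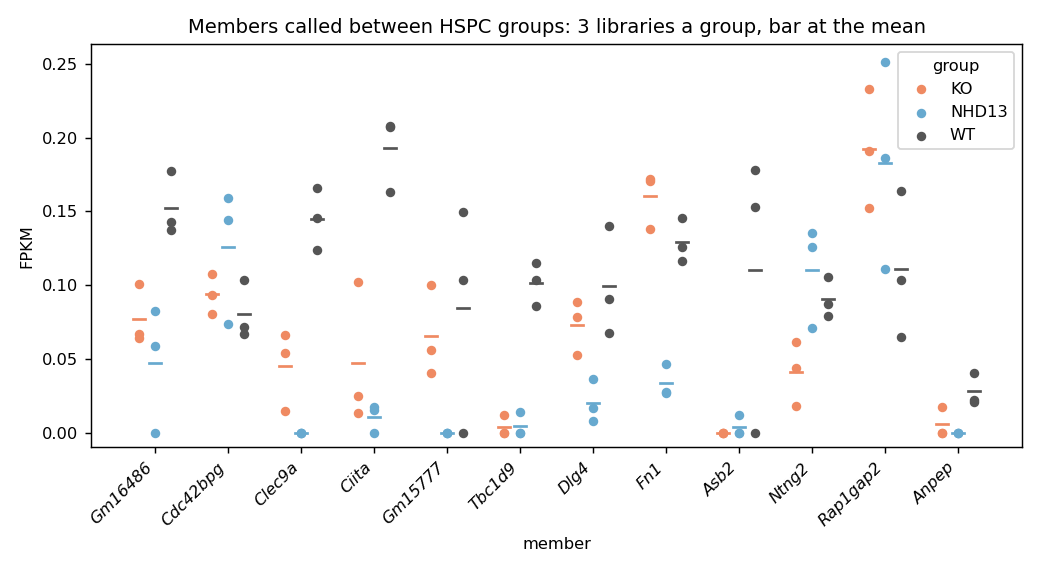
FPKM of the 12 members called by the fit on all 12 libraries, in KO against NHD13 or in NHD13 against WT. Points are the 3 libraries a group and the bar is the group mean. Clec9a, Ntng2, Anpep, Asb2 and Gm15777 entered that fit only through their AML reads. Clec9a, Gm15777 and Anpep are at 0 in all NHD13 libraries, Fn1 is lower in NHD13 than in both KO and WT, and all values lie at or below 0.251 FPKM.

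H3K36me3 was not used to choose the members. Few protein-coding members carried the mark in the leukemic spleen cells. In the NHD13/Setd2 KO - AML library 2 of the 15 (Cdc42bpg and Snx22) overlapped a peak, against 62.0% of autosomal protein-coding genes at 5 to 14 FPKM in AML, the range of the members, and 30.7% of all autosomal protein-coding genes. In the NHD13 - AML library 6 of the 15 did (Cdc42bpg, Ssh3, Snx22, Ntng2, Dlg4 and Ciita), against 93.8% at 5 to 14 FPKM and 48.0% of all. The first list held 16902 peaks over 28.4 megabases and the second 30953 peaks over 193 megabases.

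Cdc42bpg had 5.70% of its span covered by a peak in NHD13/Setd2 KO - AML and 84.4% in NHD13 - AML, with fold enrichments over background of 4.69 and 5.20, as the authors' peak lists give them. Ssh3 had none in NHD13/Setd2 KO - AML and 68.9% in NHD13 - AML. Snx22 had 13.7% in NHD13/Setd2 KO - AML and 47.1% in NHD13 - AML, but its span overlaps the abundant gene Ppib. Ntng2 was covered over 34.6% and Dlg4 over 26.4% in NHD13 - AML, and Ciita over 0.852%, each with no peak in NHD13/Setd2 KO - AML. Zic1, Clec9a, Fn1, Asb2, Anpep, Tbc1d9, Trpm2, Rap1gap2 and Gm16486 had no peak in either library. The 9 placed short members all overlapped a peak in NHD13 - AML, where 18.3% of all autosomal genes under 200 bases did. In NHD13/Setd2 KO - AML 3 of them did, against 5.99% of all. The 9 lie inside protein-coding hosts that averaged 4.77 FPKM or more in AML. Of autosomal protein-coding genes at 5 FPKM or more, 94.7% had a peak in NHD13 - AML and 70.0% in NHD13/Setd2 KO - AML. The part of the hosts in these peaks was not tested. Each ChIP group is 1 library, so the shares carry no replicate error and no test was made, and RNA of NHD13 - AML cells was not analysed here.

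**Figure D4:**
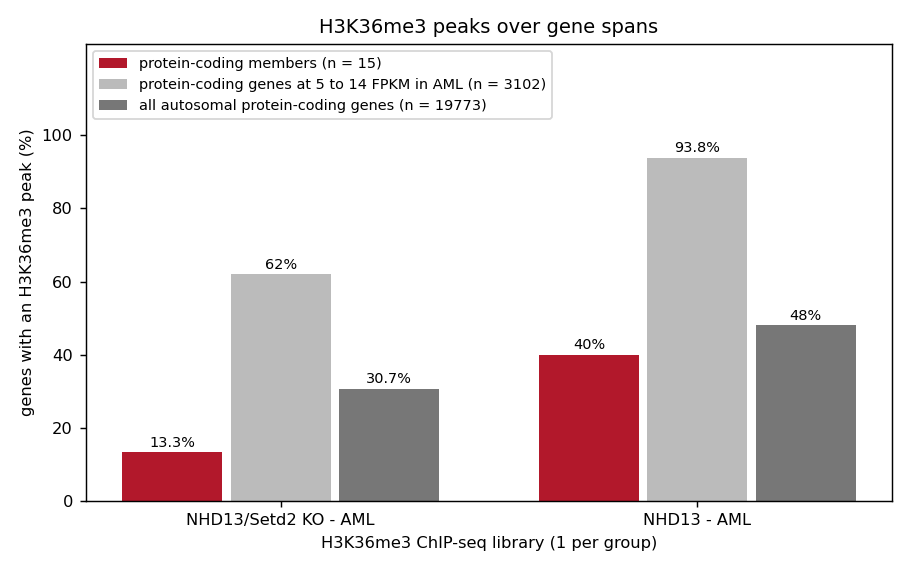
Share of genes whose span overlaps an H3K36me3 peak by at least 1 base, in 1 NHD13/Setd2 KO - AML and 1 NHD13 - AML library, for the 15 protein-coding members, for protein-coding genes at 5 to 14 FPKM in AML, and for all autosomal protein-coding genes. The members reach 13.3% and 40%, below the 62.0% and 93.8% of genes at a like level in the RNA of NHD13/Setd2 KO - AML. Their levels in NHD13 - AML cells are not known here.

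DNA methylation was likewise not used to choose the members. In the authors' tables of differentially methylated regions, 6 of the 15 protein-coding members had a region between AML and KO within 1 kb of an annotated start, or, for the 3 genes without one in the promoter table, within 1 kb of the gene. Of all autosomal protein-coding genes 29.3% had one, and of those at 5 FPKM or more in AML 18.6%. No 1 direction held: of the 6, 4 had a region with more methylation in AML and 3 had one with less.

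Methylation near a start, or within Ciita, was lower in AML at Asb2, Ciita and part of Zic1. A region over the start of Asb2 (chr12:103355862-103356090, 24 CpG sites), which reaches into the promoter printed above, was methylated at 55.6% in AML and 76.9% in KO. A larger region inside Asb2, away from its starts (chr12:103325061-103325801, 142 CpG sites), went the other way, at 73.9% in AML and 31.5% in KO. A region of 4 CpG sites inside Ciita (chr16:10509391-10509550) stood at 32.9% in AML and 75.7% in KO. Zic1 showed both directions. Beginning 659 bases into the gene (chr9:91364647-91365109, 94 CpG sites) methylation was 9.17% in AML and 24.1% in KO, and in 2 regions further into the gene it was 5.47% and 11.8% in AML against 21.3% and 36.2% in KO. Upstream of the start (chr9:91366712-91366892, 10 CpG sites) it was 72.5% in AML and 48.0% in KO, and a region of 4528 bases at the other end of the gene (chr9:91356478-91361005, 93 CpG sites) stood at 88.4% in AML and 45.3% in KO. The tables hold regions alone, so the methylation of the CpG-rich Zic1 promoter printed above, which overlaps none, is not given by them.

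Near a start, methylation was higher in AML at Rap1gap2, Dlg4 and Ssh3. Rap1gap2 has 4 annotated starts and 4 such regions, the widest with 222 CpG sites (chr11:74589572-74591134) at 56.8% in AML and 28.6% in KO. Another over its first start (chr11:74610316-74610929, 65 CpG sites), which covers the last bases of the printed promoter, stood at 46.1% in AML and 23.7% in KO. Further from a start, a region of 6 CpG sites in Rap1gap2 (chr11:74583364-74583732) was lower in AML, at 62.2% in AML and 90.2% in KO. Ssh3 had a region (chr19:4268548-4268737, 16 CpG sites) at 66.9% in AML and 42.8% in KO. At an internal start of Dlg4 (chr11:70023209-70024157, 50 CpG sites) methylation was 93.3% in AML and 69.3% in KO. At these 3 genes every listed region near a start was more methylated in AML, while Zic1 had both directions near its start. RNA was higher in AML for all members by the way they were chosen. How methylation relates to RNA was not tested.

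**Figure D5:**
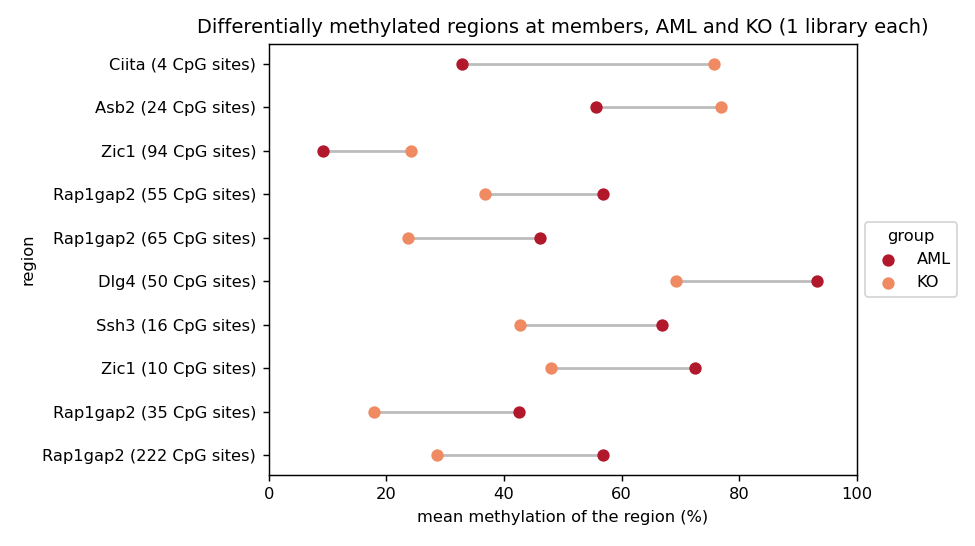
Mean methylation in AML and KO of the 10 differentially methylated regions near a start of a protein-coding member (for Ciita, within the gene), 1 bisulfite library a group, 1 row per region with its number of CpG sites. Points of AML lie left of those of KO for Ciita, Asb2 and the first Zic1 region, and right of them for the 7 others.

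Between HSPC groups, 3 protein-coding members and Mir6999 had a region, counted as above, in the table of KO and NHD13. Of all autosomal protein-coding genes 19.0% had one. Ciita and Mir6999 have no start in the promoter table and were counted by the gene with 1 kb on each side. Near the internal Dlg4 start (chr11:70024079-70024157) methylation was 71.8% in KO and 89.1% in NHD13, and near the start of Ntng2 (chr2:29246769-29247275) it was 82.1% in KO and 55.8% in NHD13. Ciita had one inside the gene (chr16:10487833-10487902), at 73.1% in KO and 49.4% in NHD13. In the table of NHD13 and WT 7 protein-coding members had one, against 22.7% of genes at 5 FPKM or more in AML, with less methylation in NHD13 at 5 and more at 2. Of these 7, Ciita and Fn1 were counted by the gene and not by a start. At Fn1 (chr1:71651436-71651654) it was 52.8% in NHD13 and 80.8% in WT, and at Ciita (chr16:10508627-10509391) 62.5% in NHD13 and 90.6% in WT. Dlg4 again had more, 83.4% in NHD13 and 62.5% in WT, as did Trpm2, with 68.5% in NHD13 and 41.3% in WT. Inside Zic1, further from its start, 4 regions were all more methylated in KO than in NHD13, the highest (chr9:91362984-91363250) at 58.1% in KO and 30.6% in NHD13, while Zic1 RNA was at 0 in both. Anpep, Snx22, Cdc42bpg and Gm16486 had no region within the gene or 1 kb of it in any of the 3 tables. With 1 library a group and no coverage in the tables, none of these differences has a replicate check.

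Of the promoter table, 13 members could be matched (12 protein-coding genes and Gm8493). Their median ratio of observed to expected CpG was 0.485, against 0.389 for all 27025 promoters, and 4 of the 13 (Zic1, Rap1gap2, Anpep and Ssh3) were above 0.6, against 36.5% of all. The range was wide, from 0.0598 at Gm16486 to 0.969 at Zic1. Motifs were searched on both strands. The E-box letters CAGCTG or CAGGTG stood in 5 of 13 promoters (32.6% of all), AGATAA of Gata factors in 3 (11.4%), TATAAA in 3 (14.2%), TGTGGT of Runx in 1 (16.9%) and TTGCNNAA of C/EBP in 1 (10.7%). TGANTCA of AP-1 (7.92% of all) stood in none, nor did the Ets-Irf composite element (2.79%) or the interferon-stimulated response element (3.49%), a pair of patterns that can overlap each other. These matches describe letters in a window of 300 bases and no more. The members are scattered over the genome: the 27 placed ones lie on 14 chromosomes and no 2 lie within 1643 kb of each other.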

How the data were processed

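RNA was measured in 12 libraries, 4 groups of 3, H3K36me3 in 2 and methylation in 4. Counts per gene and FPKM were deposited by the authors; per the submitters' processing notes, HISAT2 2.0.5, HTSeq 0.9.1, MACS2 2.1.1.20160309 and Bismark 0.19.0 were used on mm10. The deposited FPKM match count per length and column total, with no composition factor. The authors' peak lists hold a fold enrichment, a score and −log10 p and q values. The authors' methylation tables hold mean methylation as a fraction, its difference, a score and the number of CpG sites, with no coverage; the sources used here do not give their caller, the ChIP input or the strandedness of the counting.

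Members and lists were chosen with earlier results of these data known. HSPC groups were compared with edgeR 4.0.16 (R 4.3.3): TMM, filterByExpr, robust quasi-likelihood F test, Benjamini-Hochberg over the genes tested, threshold 0.05. A fit on the 12 libraries tested 16233 genes. A fit on the 9 HSPC libraries, made as an alternative, tested 14883 and gave the SEs and p-values printed for members, save 1 named as from 12 libraries. The 12-library fit was tried on simulated counts drawn at KO levels in all groups. They do not hold the members' case, near 0 in HSPCs and high in AML. DESeq2 1.42.0 was an alternative. Positions, promoters and miRNAs came from RefSeq tables of GRCm38.p6. Named members were the 15 highest in AML, markers, those with the 3 widest and 3 narrowest spreads, those called, those with a region near a start or no H3K36me3 peak, and those at the limits of the rule, with other protein-coding members added after their values were seen. Intervals are exact (Clopper-Pearson, 95%).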

Additional observations from a re-analysis of the deposited data

How the results depend on the processing

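The membership depends on the limits and on the scaling. An AML minimum of 2 or 10 FPKM gave 163 or 7 genes, and an HSPC ceiling of 0.1 or 0.5 FPKM gave 15 or 93. FPKM with TMM factors left 21 genes, all among the 38, and DESeq2 size factors 22, of which 21 were among the 38; both lost Fn1, Asb2, Anpep, Ntng2, Rap1gap2, Snx22 and Trpm2. TPM gave 81 genes, with 13 of the 38. Leaving out 1 library at a time gave 33 to 39. Choices made after seeing the data, keeping placed genes or genes of 200 bases or more, gave 27 and 26.

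A fit on the 9 HSPC libraries, which tested 10 members, called 2 in KO against NHD13 and 6 in NHD13 against WT. The fit on all 12 libraries called 4 and 11, and leaving out 1 library gave 3 to 5 and 8 to 11. These counts and those that follow include members whose HSPC reads alone did not pass the filter. With a replicate block 4 and 10 were called, the 10 without Gm15777; same-numbered libraries deviated together with correlations of -0.09 to 0.11, so the numbers do not pair them. Without a filter and with DESeq2, 4 and 10 were called.

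Peaks in NHD13/Setd2 KO - AML lay over 5 of the 27 placed members, over 1 at −log10 q of 5 or more, and over 2 with at least 25% or 50% of the span covered. Of all placed autosomal genes 18.8% had a peak, and 8.85% at the stricter q. For regions near a start, a difference of 30 points or more left 1 of 6 members in AML and KO, 0 of 4 in KO and NHD13 and 1 of 8 in NHD13 and WT. In AML and KO the protein-coding members then stood at 6.67%, below the 15.4% of all autosomal protein-coding genes, where without that limit they stood at 40%, above 29.3%. In KO and NHD13, 5 kb around the start gave 7, the gene span 10, and 10 or more CpG sites 2. Counts of reads limit the short members and all HSPC values.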
